A study of Mus musculus with 2 samples.

Results

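Genes for chromatin remodellers and for the enzymes that write or erase histone methylation were examined for islands of an antibody against TCF-1. They were the protein-coding RefSeq genes of mm10 whose symbols start with Kmt, Kdm, Setd, Arid or Chd followed by a number, or with Smarc, and 67 of 21887 protein-coding genes met that rule. A locus took in the gene plus 10 kb beyond each end, and an island, a stretch of clustered reads called by the authors, belonged to it when they overlapped by at least 1 bp. The 67 loci held 203 of the 19531 deposited islands.

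Histone H3 and H4 carry methyl groups on lysines that are added by SET-domain methyltransferases (Kmt and Setd genes) and removed by Kdm demethylases. Remodellers of the BAF type (Smarc and Arid1 or Arid2 subunits), the ISWI type and the Chd type use ATP to slide or evict nucleosomes. In lymphocytes these enzymes help to set which enhancers and promoters are open. TCF-1, encoded by Tcf7, is an HMG-box factor of the Wnt pathway that is itself known to open chromatin in T cell precursors.

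The libraries came from ChIC-seq (chromatin immunocleavage), where micrococcal nuclease tethered to an antibody releases the DNA around the bound protein. Each came from 500 fixed C57BL/6 lymphoid tissue inducer (LTi) cells, sorted as lineage-negative CD127+CCR6+ cells without NK1.1, NKp46 or KLRG1; these are innate lymphoid cells known for seeding lymph nodes and Peyer's patches. The mutant library was Tcf7fl/fl-VavCre, in which Cre under the Vav promoter deletes floxed Tcf7 in blood cells, from small intestine lamina propria. The other was Tcf7+/+, from Peyer's patches. There was 1 library per genotype and the tissue differed with it, so genotype and tissue cannot be told apart and nothing here has a replicate check. The sources used here give neither the age nor the number of mice.

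The deposited table has a peak and a control column whose header names no sample, so all values set the peak library against the control library, and the genotypes are not ranked. In all, 483771 peak-library and 189291 control-library reads fell in islands. The deleted gene Tcf7 had 9 islands with 143 against 31 reads, but exon positions were not used here, so this does not check the genotype. Among the genes of the sorted surface markers, Il7r had 192 against 68 reads and Ccr6 76 against 23, and of those absent from the sorted cells Klrb1c also had 76 against 23, Klrg1 had 43 against 14 and Ncr1 had no island. Islands are not expression levels. A fold divides peak-library reads by control-library reads times the caller's factor of 2.00 (1.997 before rounding), and a pooled fold does so with reads summed over islands. Its 95% interval is an exact conditional binomial one that covers counting error only and no variation between replicates. PCR copies of a molecule counted more than once would make it too narrow, and the handling of duplicates is not stated.

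Islands lay at nearly all chromatin genes, but most were modest. Of the 67 genes 63 had an island, where 54.7% of all protein-coding genes had one, and 50 had one whose FDR in the authors' table was at most 0.05 (a low-FDR island), where 40.3% of all genes did. The 4 genes without an island were Chd5, a Chd remodeller known mainly from neurons, Smarca1, an ISWI ATPase on chromosome X, Smarcad1, a remodeller of the Snf2 family, and Kdm5d, an H3K4 demethylase on chromosome Y. Islands stood at 3.25 per 100 kb of chromatin gene loci, against 1.30 per 100 kb over the loci of all protein-coding genes. The 203 islands pooled to 1.41 (95% interval 1.33 to 1.49), from 4396 against 1565 reads, and the 16795 islands in loci of all protein-coding genes pooled to 1.58 (1.57 to 1.59). The median pooled fold per gene was 1.47 over the 63 chromatin genes with an island and 1.60 over the 11974 protein-coding genes with one. These differences were described and not tested.

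Longer loci can hold more islands, and the chromatin gene loci were long, with a median of 72.3 kb against 37.2 kb over all protein-coding genes. In loci under 40 kb, 5 of 7 chromatin genes had a low-FDR island, where 33.3% of all genes of that length did. In loci of 40 to 80 kb it was 18 of 28 chromatin genes against 47.9% of all genes. In loci of 80 to 120 kb it was 13 of 17 against 53.7%, and in those of 120 kb or more it was 14 of 15 against 46.6%. The mean number of islands per gene was higher for the chromatin genes in each of the 4 length classes, at 4.60 against 1.73 in the longest and 1.71 against 0.877 in the shortest.

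**Figure D1:**
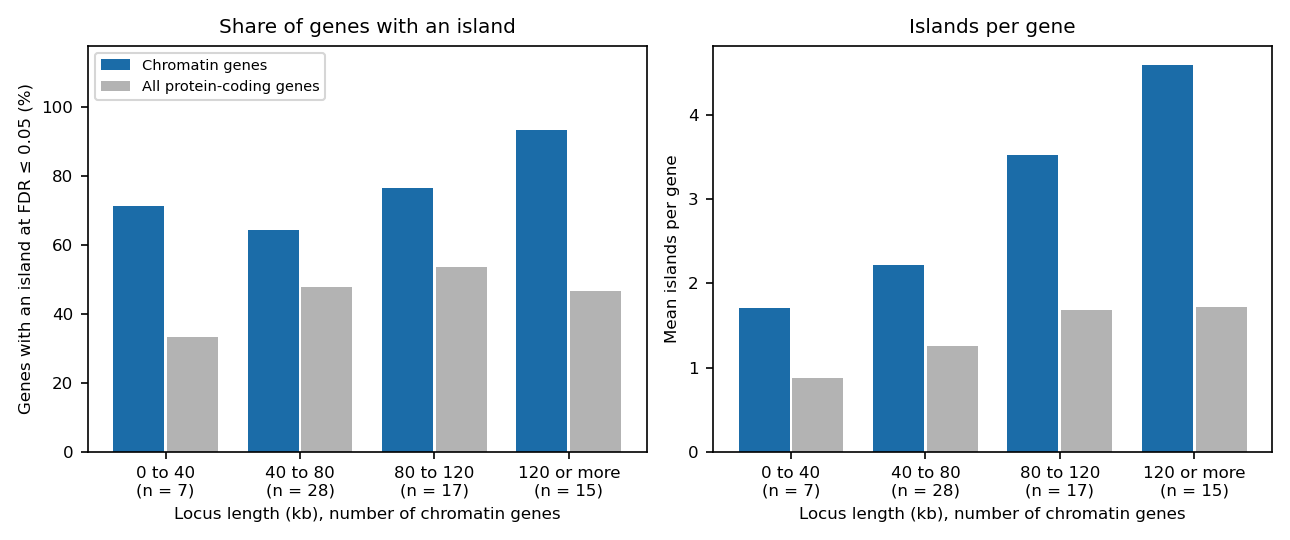
Share of genes with a low-FDR island, at most 0.05 (left, percent) and mean number of islands per gene (right) in 4 classes of locus length in kb, for chromatin genes (blue) and all protein-coding genes (grey). In loci of 120 kb or more 93.3% of chromatin genes had such an island, against 46.6% of all genes.

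Strong islands were scarce among them. Of the 203 islands 102 (50.2%, Clopper-Pearson 95% interval 43.2 to 57.3) were low-FDR islands, where 62.5% of all islands were, and 19 (9.36%) reached an FDR of 1e-05, where 20.7% of all islands did. By gene, 17 of the 67 had an island at 1e-05 or below, beside 15.8% of all genes. A fold below 1 was found for 22 islands (10.8%), close to the 10.2% of all islands, and 3 had no control read, beside 5.69% of all islands. The median island held 17 peak-library reads (quartiles 12 and 28) and 6 control-library reads (3 and 10.5). In the loci of all protein-coding genes the medians were 16 peak-library and 5 control-library reads. The islands were also wider, with a median of 1600 bp against 1400 bp. The part of these read depths and widths in the lower fold was not tested. The authors' FDR takes the control reads as known without error. A two-sided exact binomial test that counts the error of both libraries, adjusted by Benjamini-Hochberg over all 19531 islands, passed 0 of the 203 islands and 0.297% of all islands. At an unadjusted p below 0.05 it passed 17 of the 203, beside 15.3% of all islands.

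**Figure D2:**
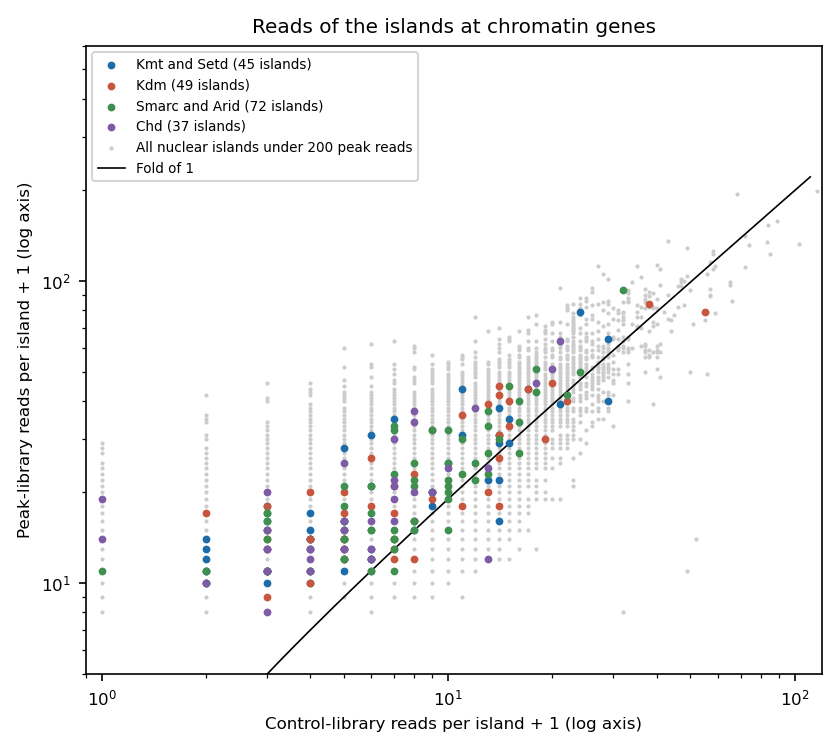
Peak-library reads against control-library reads per island, each plus 1, on log axes, for the 203 islands at chromatin genes (coloured by family) over all nuclear islands below 200 peak-library reads (grey); the line marks a fold of 1. The coloured points lie within the grey cloud, with 22 islands under the line and 3 without a control read at the left edge.

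Most chromatin genes had an island over their start. RefSeq promoter windows, 250 bases before to 50 after a start, were at hand for 51 of the 67 genes (build GRCm38.p6, the mm10 assembly). Of these 51 genes 40 had an island over a window, where 39.7% of all protein-coding genes with a window did. The other 11 were Chd5, Smarca1, Smarcad1 and Kdm5d, which had no island at all, and Kmt2c, Kmt2d, Kmt5b, Arid3c, Smarcb1, Smarcd2 and Smarcd3, whose islands lay elsewhere. A window need not lie at the annotated end of the gene. That of Smarcd2 lies inside the gene, at 106267583 to 106267882 on chromosome 11 (minus strand). An island at 106272801 to 106274200 covers the upstream end of Smarcd2, at 106272998. The 51 genes had 129 islands, of which 42 lay over a promoter window of the gene, 61 elsewhere in the gene, 13 in the flank upstream and 13 in the flank downstream. The 16 genes without a window were Arid2, Arid3a, Arid4a, Chd1, Chd2, Chd3, Chd7, Kdm2a, Kdm3b, Kdm4b, Kdm5a, Kdm6b, Kmt2b, Kmt2e, Setd1b and Smarce1.

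At the chromatin genes with a window, as at all genes with one, islands over promoters had more reads in both libraries and lower folds than islands elsewhere. At the 51 chromatin genes, 57 islands over a promoter window of any protein-coding gene had a pooled fold of 1.36 (1.23 to 1.50), with medians of 21 against 8 reads. The 6329 such islands at all genes with a window, leaving out those of 200 peak-library reads or above, pooled to 1.42 (1.40 to 1.43). The 72 islands of these chromatin genes that touched no promoter window had a pooled fold of 1.51 (1.35 to 1.70), with medians of 14 against 5 reads. The same kind of island at all genes with a window numbered 7839 and had a pooled fold of 1.81 (1.79 to 1.83). At the 16 chromatin genes without a window of their own, islands at their own starts could not be told from islands elsewhere. There, 6 islands over a window of another gene pooled to 1.41 (1.03 to 1.96), with a median fold of 1.42. The other 68 islands pooled to 1.38 (1.26 to 1.52), with a median fold of 1.57. These differences were not tested.

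**Figure D3:**
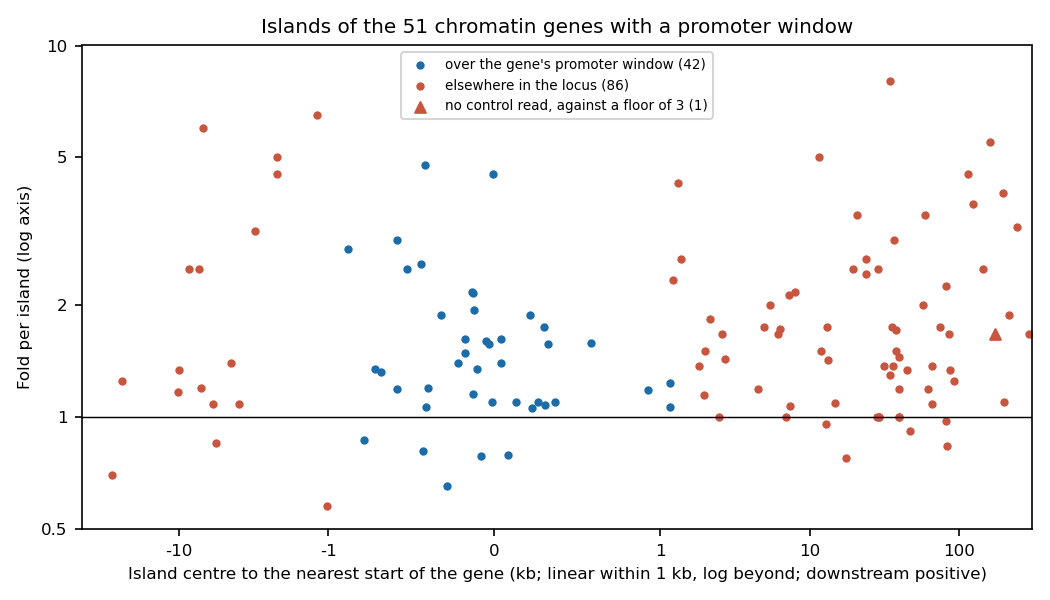
Fold per island (log axis) against the distance of its centre from the nearest start of the gene in kb (linear within 1 kb, log beyond), for the 129 islands of the 51 chromatin genes with a promoter window; the triangle is an island without control reads, set against a floor of 3 reads. Islands over the promoter window (blue, 42) ran from 0.655 to 4.76, and islands elsewhere (red) reached 8.01.

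TCF factors are known to bind the word CTTTGAA and close variants. The windows were searched on both strands for CTTTGAA, the variant CTTTGAT, the variant CTTTGTA and the variant CTTTGTT, and a window with several matches, on either strand or overlapping, was counted once. Of the 67 promoter windows of the 51 genes (some genes have more than 1 start) 7 held such a word (10.4%), where 14.7% of all promoter windows did. Of the 47 windows under an island 3 did (6.38%), where 10.5% of all windows under an island did. Those 3 windows are printed from RefSeq, 5′ to 3′ on the gene's strand, since they join an island and the word; capitals mark the word, which reads AACAAAG where CTTTGTT lies on the opposite strand.
Setd7: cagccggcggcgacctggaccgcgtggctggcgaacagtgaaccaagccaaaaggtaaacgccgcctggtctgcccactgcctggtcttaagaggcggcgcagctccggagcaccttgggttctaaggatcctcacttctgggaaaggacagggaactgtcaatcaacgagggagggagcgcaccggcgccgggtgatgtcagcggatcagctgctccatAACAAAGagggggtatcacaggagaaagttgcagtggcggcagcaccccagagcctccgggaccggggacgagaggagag
Kdm8: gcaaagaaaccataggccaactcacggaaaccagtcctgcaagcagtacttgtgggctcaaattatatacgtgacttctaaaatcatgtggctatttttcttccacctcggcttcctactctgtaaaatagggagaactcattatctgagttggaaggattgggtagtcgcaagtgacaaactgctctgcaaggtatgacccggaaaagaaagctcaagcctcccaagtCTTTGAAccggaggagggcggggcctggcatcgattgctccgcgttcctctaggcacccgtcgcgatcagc
Kdm6a: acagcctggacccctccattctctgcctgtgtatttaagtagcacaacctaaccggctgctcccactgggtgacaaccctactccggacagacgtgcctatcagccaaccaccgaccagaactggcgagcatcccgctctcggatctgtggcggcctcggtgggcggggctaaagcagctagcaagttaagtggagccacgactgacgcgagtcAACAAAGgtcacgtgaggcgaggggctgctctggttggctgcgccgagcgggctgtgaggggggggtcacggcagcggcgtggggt

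The window of Setd7 (GRCm38.p6, minus strand) is chr3:51560774-51561073, with the word starting 30 bases before the start of the gene. The island over it had 34 against 6 reads, the most peak-sided of the 3, with a fold of 2.84 (1.18 to 8.27). The window of Kdm8 (plus strand) is chr7:125444370-125444669, with the word 21 bases before the start and 38 against 12 reads. The window of Kdm6a (plus strand) is chrX:18162325-18162624, with the word 36 bases before the start and 45 against 19 reads, a fold of 1.19. A match is a run of letters and not a binding site.

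Most promoter islands at chromatin genes lay over windows without the word. The 3 such windows under the islands of highest fold, counting only islands of 20 or more peak-library reads, are printed to show this, all in lower case because no word was found in them.
Setd4: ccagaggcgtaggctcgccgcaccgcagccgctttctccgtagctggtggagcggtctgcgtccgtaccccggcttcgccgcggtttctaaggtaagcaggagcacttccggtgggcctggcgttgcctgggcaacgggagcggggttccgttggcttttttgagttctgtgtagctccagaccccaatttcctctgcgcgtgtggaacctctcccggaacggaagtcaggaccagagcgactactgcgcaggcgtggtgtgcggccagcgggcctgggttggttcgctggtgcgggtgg
Chd8: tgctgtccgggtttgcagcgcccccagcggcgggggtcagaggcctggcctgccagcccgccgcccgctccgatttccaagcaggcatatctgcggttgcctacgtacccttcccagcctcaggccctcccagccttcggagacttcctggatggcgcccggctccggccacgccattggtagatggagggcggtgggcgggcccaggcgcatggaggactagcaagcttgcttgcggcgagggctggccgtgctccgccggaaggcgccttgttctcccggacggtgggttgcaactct
Kmt5c: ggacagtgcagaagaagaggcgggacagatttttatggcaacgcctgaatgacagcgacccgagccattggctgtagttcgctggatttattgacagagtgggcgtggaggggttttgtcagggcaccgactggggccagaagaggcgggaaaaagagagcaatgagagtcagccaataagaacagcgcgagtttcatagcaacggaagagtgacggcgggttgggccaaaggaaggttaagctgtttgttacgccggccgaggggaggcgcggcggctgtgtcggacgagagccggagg

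The window of Setd4 (minus strand) is chr16:93603766-93604065, under an island with 30 against 5 reads, 3.00-fold (1.15 to 9.92). The window of Chd8 (minus strand) is chr14:52257711-52258010, under an island with 36 against 7 reads, 2.58-fold (1.13 to 6.86). The window of Kmt5c (plus strand) is chr7:4739877-4740176, under an island with 43 against 10 reads, 2.15-fold (1.07 to 4.81). The islands of Setd4 and Chd8 also reach the loci of the neighbours Cbr1 and Rab2b. G and C made up 50.0% of the window in Kdm8, the lowest of these 6, and 69.3% in Chd8, the highest, beside medians of 63.7% over the windows of all 51 chromatin genes and 61.7% over all windows under an island.

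Reads were then summed over the islands of each gene and compared between the libraries by an exact conditional binomial test, two-sided, with Benjamini-Hochberg adjustment over the 11974 genes with an island. The test passed 3 of the 63 chromatin genes as higher in the peak library, Arid5b, Chd2 and Chd1, where 8.91% of all genes with an island passed. None of the 63 passed as lower in the peak library, where 0.0334% of all genes did, but calling on peak-library reads favours the higher side: every island here has at least 7 of them, while control-library reads go down to 0. The split between higher and lower genes is therefore no result. The test also sets each gene against a fold of 1, while the median pooled fold over all genes with an island was 1.60. Passing thus does not by itself mark a gene as more peak-sided than the typical gene. Arid5b pooled to 1.62, Chd2 to 1.53 and Chd1 to 2.24. At an unadjusted p below 0.05, 20 of the 63 were higher in the peak library, beside 26.1% of all genes with an island. A pooled fold below 1 was found for 4 of the 63, Kdm3a, Kdm4d, Setd5 and Kmt5a, beside 8.58% of all genes. With the totals of the table set equal, 0 of the 63 passed and 21 of the 63 lay below 1, beside 27.2% of all genes with an island. With islands of 20 or more peak-library reads alone 0 passed too, beside 5.22%.

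**Figure D4:**
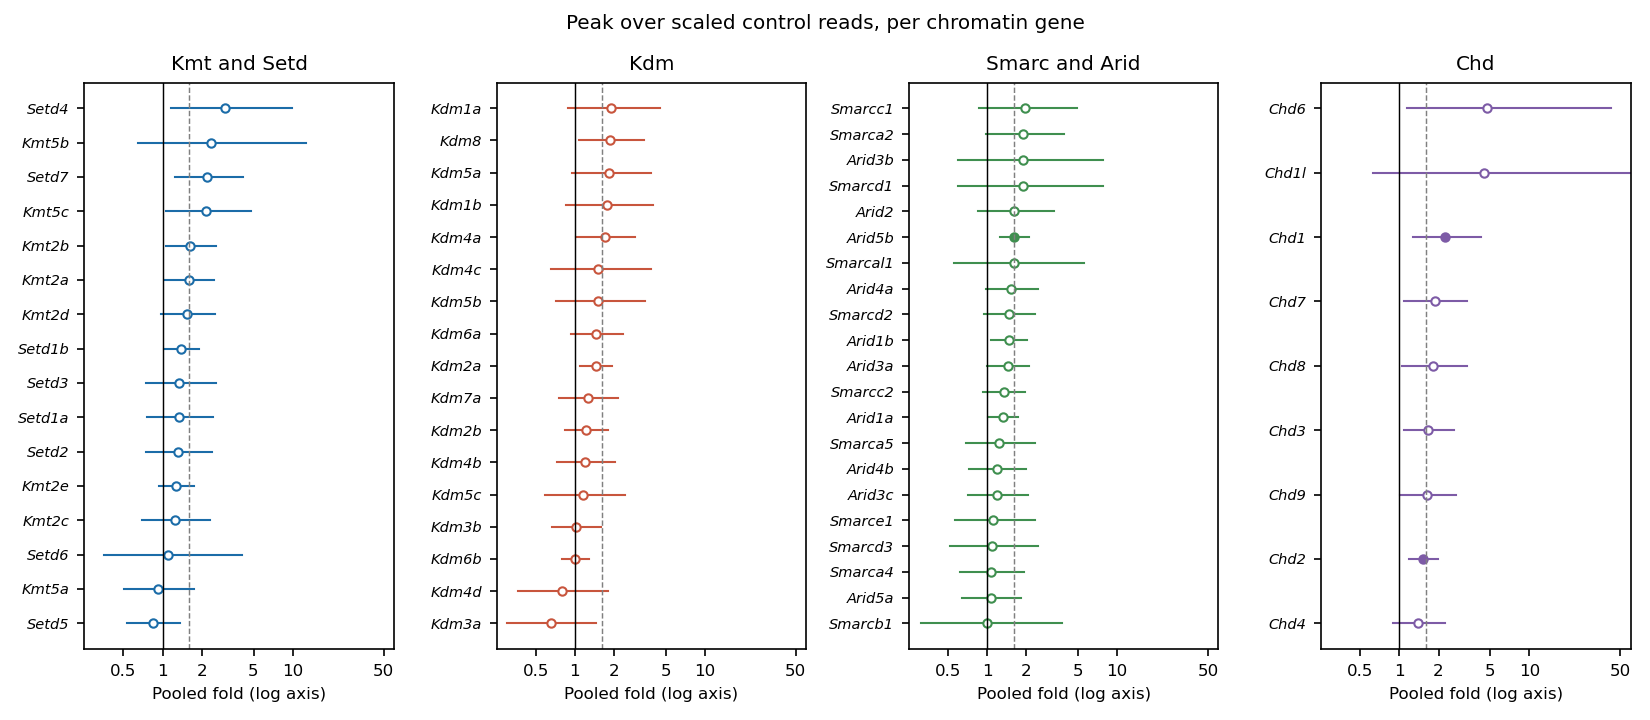
Pooled fold of peak-library over scaled control-library reads for each of the 63 chromatin genes with an island (points, log axis) with exact 95% intervals, by family; filled points passed the gene-level test, the solid line marks a fold of 1, the dashed line the median of 1.60 over all genes with an island, and the interval of Chd1l runs past the axis to 198. Only Arid5b, Chd2 and Chd1 are filled, and most points lie between 1 and 2.

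The Chd remodellers had the highest pooled fold of the 4 families. Islands stood at 9 of the 10 genes, and the same 9 had a low-FDR island, beside 54.7% and 40.3% of all protein-coding genes. Their 37 islands had a pooled fold of 1.68 (1.44 to 1.96), from 735 against 219 reads, close to the 1.58 of all protein-coding gene loci. Chd1, which encodes an H3K4me3-binding remodeller of transcribed genes, lies on chromosome 17 at 15704967 to 15772612. Its 4 islands had 24 against 4, 18 against 6, 11 against 3 and 14 against 2 reads, all with more than the scaled control. The sum of 67 against 15 reads pooled to 2.24 (1.26 to 4.22, adjusted p = 0.0442 by the exact gene-level test). With gene bodies alone Chd1 kept that fold but no longer passed, while Arid5b and Chd2 did. Chd2, a related remodeller, lies on chromosome 7 at 73426652 to 73541746 and had 12 islands with 265 against 87 reads, pooling to 1.53 (1.19 to 1.97, adjusted p = 0.0134 by the exact test).

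Within Chd2 the folds of the islands varied, and differences between them were not tested. Inside the gene, the one at 73478401 to 73480400 showed 18 against 0 reads, the lowest FDR of all 203 islands (2.53e-21). With a floor of 3 control reads in place of 0 its fold was 3.00, and the exact 95% lower bound was 2.20. Its binomial p was 0.00134 before and 0.118 after adjustment over all islands. The island with the most reads, at 73536601 to 73539600, had 62 against 20. The islands at 73544601 to 73546000 and 73548001 to 73550600, outside the gene, had 11 against 12 and 23 against 12 reads. Their folds of 0.459 (0.184 to 1.14) and 0.960 (0.458 to 2.12) had intervals that include 1. Other protein-coding loci held none of the 12 islands.

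Chd3 and Chd4 encode the ATPases of the NuRD complex, which pairs remodelling with histone deacetylation. Chd3 had 4 islands with 93 against 28 reads, pooling to 1.66 (1.08 to 2.64). One of them, 3873 bp outside the gene at 69337601 to 69339400 on chromosome 11, had 13 against 0 reads and also lies in the locus of Kcnab3. With the floor of 3 reads in place of 0 its fold was 2.17, and the exact 95% lower bound was 1.53. Chd4 had 3 islands with 78 against 28 reads, 1.40 (0.895 to 2.23), and all 3 are shared with the loci of Lpar5 or Nop2. Chd7 and Chd8, remodellers mutated in human developmental disorders, had 5 and 3 islands. Chd7 had 67 against 18 reads, pooling to 1.86 (1.09 to 3.33), and all its islands had a fold above 1. Chd8 had 62 against 17 reads and 1.83 (1.05 to 3.33), with 36 against 7 of them in the promoter island. Chd9 had 75 against 23 reads, with a pooled fold of 1.63 (1.01 to 2.73).

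The remaining Chd genes rested on single islands. Chd6 had 1 island over its promoter with 19 against 2 reads, 4.76-fold (1.15 to 42.1), in a locus of 182 kb. Chd1l, an oncogene-linked remodeller recruited by poly(ADP-ribose), had 1 with 9 against 1 reads, and its interval of 0.625 to 198 includes 1. With flanks of 50 kb it stood at 1.97, against 4.51 with 10 kb.

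Genes of the BAF complex and the ARID family split between dense and sparse loci. Of the 23 Smarc and Arid genes 21 had an island and 15 a low-FDR island, beside 54.7% and 40.3% of all protein-coding genes, and their 72 islands had a pooled fold of 1.40 (1.27 to 1.55). All 10 Arid genes had an island and 9 a low-FDR island, with 51 islands in all. Of 13 Smarc genes 11 had an island and 6 a low-FDR island, with 21 islands. The 10 Arid genes pooled to 1.42 (1.26 to 1.60) and the Smarc genes to 1.37 (1.14 to 1.64).

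Arid5b, which encodes a DNA-binding partner of the demethylase Phf2, lies on chromosome 10 at 68092523 to 68279355. It had 12 islands, 7 of them low-FDR ones, with 271 against 84 reads and a fold over all of 1.62 (1.26 to 2.09, adjusted p = 0.00389 by the exact gene-level test). No island of Arid5b had a fold below 1 and none reached another protein-coding locus. The largest, over the start at 68276201 to 68281600, had 92 against 31 reads, a fold of 1.49, and was the island with the most peak-library reads of the 203. The one with the lowest FDR, 173 kb from the start at 68105401 to 68106200, had 10 against 0 reads. With the floor of 3 reads in place of 0 its fold was 1.67, and the exact 95% lower bound was 1.12. Another 3 inside the gene had 15 against 2, 14 against 2 and 10 against 2 reads. The paralog Arid5a, an RNA-binding regulator of cytokine mRNAs, had 1 island with 49 against 23 reads, 1.07 (0.638 to 1.83).

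Arid1a and Arid1b encode the mutually exclusive large subunits of canonical BAF. Arid1a had 10 islands, 10.2 per 100 kb of its locus, with 216 against 82 reads, pooling to 1.32 (1.02 to 1.72). Only 4 of the 10 were low-FDR islands, and the strongest, at 133729401 to 133731400 on chromosome 4 inside the gene, gave 2.67-fold from 32 against 6 reads (1.10 to 7.81). Arid1b had 11 islands, all overlapping the gene, in a locus of 373 kb, with 158 against 54 reads and 1.47 (1.07 to 2.03). Its 4 islands nearest the start had folds of 1.06, 1.43, 1.75 and 0.956. Those deeper in the gene ran from 0.835, with 10 against 6 reads, to 4.51, with 9 against 1. The island of 9 against 1 reads, at 5108401 to 5109000 on chromosome 17, had an interval of 0.625 to 198. That at 5189601 to 5190600, with 16 against 2, had one of 0.942 to 35.9, and both include 1. Arid2, the PBAF subunit, had 3 islands with 42 against 13 reads, 1.62 (0.852 to 3.29). Loci with 10 or more islands were those of Chd2, Arid5b, Arid1b and Arid1a, 4 of the 67, where 0.384% of all protein-coding genes had as many.

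**Figure D5:**
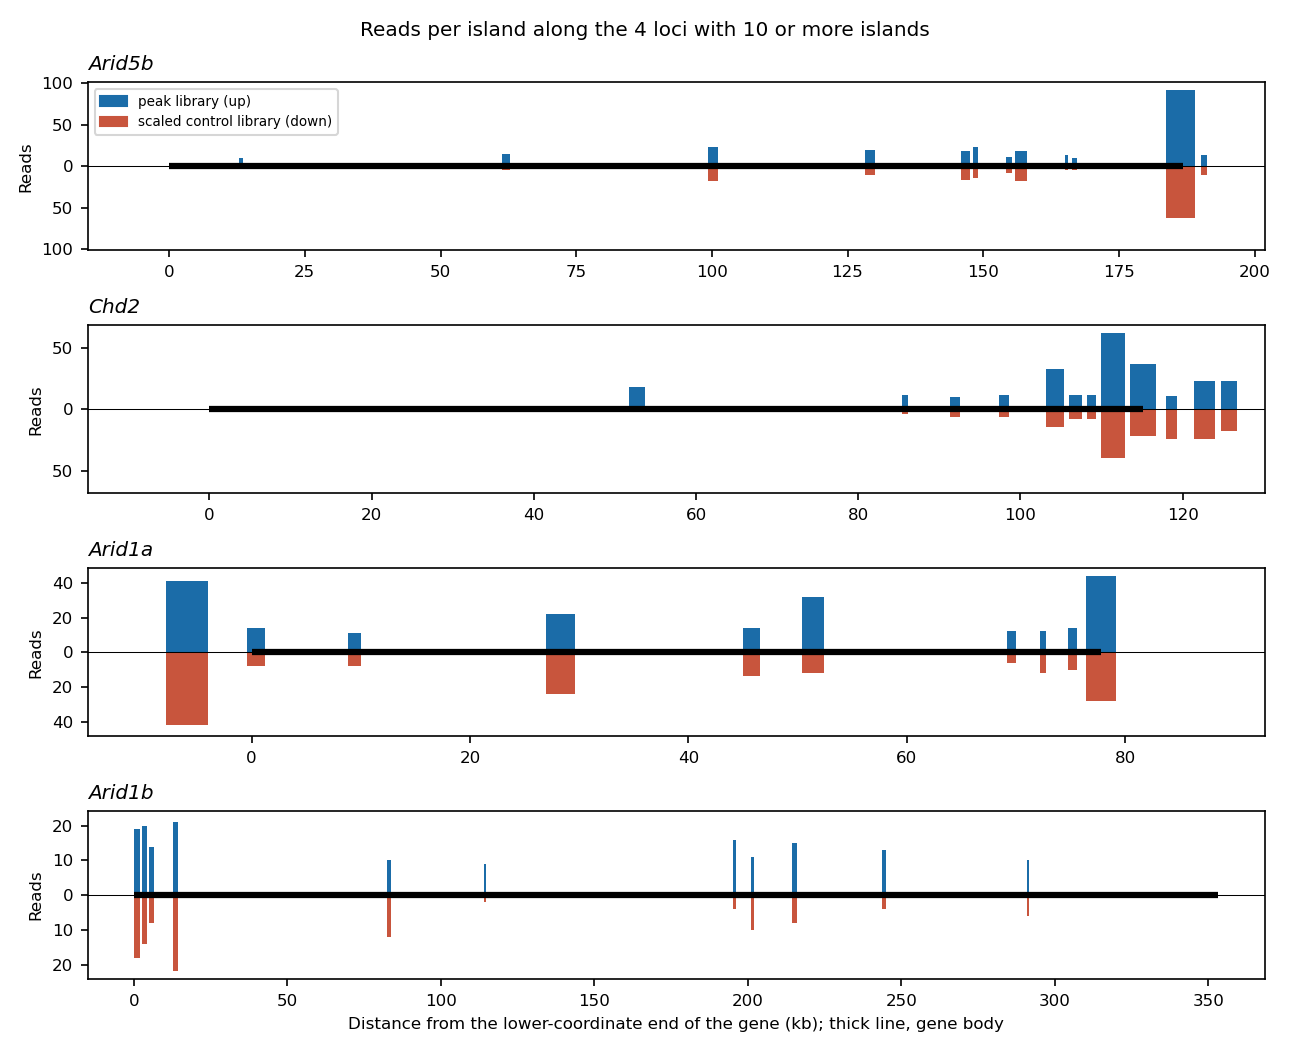
Reads per island along Arid5b, Chd2, Arid1a and Arid1b, in kb from the end of the gene with the lower coordinate; bars up are peak-library reads, bars down control-library reads times the scaling factor, and the thick line is the gene. The tallest bars stand at 1 end of Arid5b and Chd2, while Arid1b has a cluster at its left end and single islands across the gene.

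The ATPases had few islands. Smarca4, the main BAF ATPase (BRG1), had 2 islands with 43 against 20 reads, pooling to 1.08 (0.620 to 1.93), and no low-FDR island. Its paralog Smarca2 had 3 with 45 against 12 reads, 1.88 (0.977 to 3.90). Smarca5, the ISWI ATPase, had a promoter island of 42 against 17 reads, 1.24 (0.689 to 2.32). The core subunits Smarcb1 and Smarce1 had 10 against 5 and 29 against 13 reads, with 1.00 (0.312 to 3.73) and 1.12 (0.563 to 2.34). With flanks of 50 kb they stood at 1.69 (0.747 to 4.30) and 1.73 (1.11 to 2.80), and Smarce1 then passed the gene-level test. Smarcc1, a scaffold subunit, had 1 island of 31 against 8 reads, 1.94 (0.873 to 4.89), or 1.08 with flanks of 50 kb, and its paralog Smarcc2 had 5 with 113 against 42 reads, 1.35 (0.938 to 1.97). With 10 kb flanks each of these intervals includes 1, which does not show that the libraries were alike.

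All 16 methyltransferase genes had an island and 14 a low-FDR island, the exceptions being Kmt5a and Setd6, beside 54.7% and 40.3% of all protein-coding genes. Their 45 islands had a pooled fold of 1.41 (1.25 to 1.59), from 1007 against 358 reads, and 0 of the 16 genes passed the gene-level test, beside 8.91% of all genes with an island. At an unadjusted p below 0.05 it was 6, beside 26.1%. Kmt2a and Kmt2b, the MLL enzymes of H3K4 at promoters, had 95 against 30 reads in 6 islands and 91 against 28 in 3, with pooled folds of 1.59 (1.04 to 2.48) and 1.63 (1.06 to 2.58). All 3 islands of Kmt2b are shared with neighbours, among them the one with the highest fold of any of the 203 islands with at least 20 peak-library reads, 27 against 4 reads and 3.38 (1.18 to 13.3). Kmt2c and Kmt2d, which place H3K4me1 at enhancers, had 42 against 17 and 77 against 25 reads, with 1.24 (0.689 to 2.32) and 1.54 (0.971 to 2.53). Without its flanks Kmt2c stood at 3.38 (1.18 to 13.3). In both genes the folds of single islands varied. Kmt2c had 11 against 1 reads (0.801 to 237) and 16 against 3 (0.765 to 14.3) inside the gene, and 15 against 13 (0.256 to 1.32) just upstream. Kmt2d had 13 against 1 (0.978 to 277), 12 against 1 (0.889 to 257), 24 against 9 and 28 against 14. The interval of each of these islands includes 1.

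Setd1a and Setd1b, the enzymes that place most H3K4me3, had 48 against 18 and 158 against 57 reads, with pooled folds of 1.34 (0.763 to 2.44) and 1.39 (1.02 to 1.91). All islands of both are shared with neighbouring loci. Kmt2e, a relative of the MLL enzymes, had 6 islands with 157 against 62 reads, 1.27 (0.939 to 1.73), none of them shared. Setd2, the enzyme of H3K36 trimethylation, had 47 against 18 reads, 1.31 (0.745 to 2.39). Among the enzymes of H4K20, Kmt5c had 43 against 10 reads, 2.15 (1.07 to 4.81), Kmt5b had 14 against 3 reads, 2.34 (0.652 to 12.7), and Kmt5a had 33 against 18 reads, 0.918 (0.502 to 1.73). Setd7, which methylates H3K4 and other proteins, had 3 islands with 15 against 7, 17 against 2 and 34 against 6 reads, and its pooled fold of 2.20 (1.24 to 4.16) just missed the gene-level test (adjusted p = 0.0506 by the exact test), which it passed with chromosome X left out. Setd4 had the highest pooled fold of the family, 3.00 from 1 island, and Setd5 the lowest, 0.840 (0.528 to 1.36) from 52 against 31 reads. With flanks of 50 kb Setd5 and Kmt5a lay above 1, at 1.13 and 1.29.

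The demethylases had the lowest pooled fold of the 4 families, and the differences between families were not tested. By the median pooled fold per gene they were not the lowest. That median was 1.45 for the demethylases, 1.37 for the methyltransferases, 1.44 for the Smarc and Arid genes and 1.83 for the Chd genes. Kdm6b alone held 213 of the 1143 peak-library and 106 of the 449 control-library reads of the demethylases. Of the 18 genes 17 had an island and 12 a low-FDR island, beside 54.7% and 40.3% of all protein-coding genes, and the 49 islands had a pooled fold of 1.27 (1.14 to 1.43), from 1143 against 449 reads. With the totals set equal the demethylases stood at 0.996, the methyltransferases at 1.10, the Smarc and Arid genes at 1.10 and the Chd genes at 1.31. Only 2 of the 49 (4.08%) reached an FDR of 1e-05, beside 20.7% of all islands, and 9 (18.4%) had a fold below 1, beside 10.2%. Kdm6b, which removes H3K27me3 and is induced by cytokines, had 4 islands with 213 against 106 reads, pooling to 1.01 (0.794 to 1.28). In the gene body alone Kdm6b stood at 1.30 (0.938 to 1.83), and with the totals set equal at 0.786 (0.620 to 1.002). Its island at 69393801 to 69396400 on chromosome 11, outside the gene, had 78 against 54 reads and a fold of 0.723 (0.505 to 1.04). The one at 69416801 to 69420000, inside the gene, had 44 against 13 and 1.70 (0.897 to 3.43), and both intervals include 1. All 4 are shared with neighbouring loci. Kdm6a, its X-linked relative, had 45 against 19, 14 against 2 and 20 against 6 reads, 1.47 (0.936 to 2.36) in all.

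Kdm2a and Kdm2b bind unmethylated CpG islands and act on H3K36. Kdm2a had the most islands of the family, 9, with 203 against 70 reads and 1.45 (1.10 to 1.93), its adjusted p being 0.0644 by the exact test. Kdm2b had 6 islands with 102 against 42 reads, 1.22 (0.841 to 1.79), of which 1 was a low-FDR island. The H3K4 demethylases Kdm1a, Kdm1b, Kdm5a and Kdm5b had 34 against 9, 35 against 10, 44 against 12 and 30 against 10 reads, and each pooled fold, 1.89, 1.75, 1.84 and 1.50, had an interval that includes 1. In the gene body alone Kdm5b stood at 0.787 (0.279 to 2.39). The X-linked H3K4 demethylase Kdm5c had 30 against 13 reads, 1.16 (0.585 to 2.41). Kdm8 had 63 against 17 reads, 1.86 (1.07 to 3.38). An island inside Kdm4a, at 118144801 to 118146000 on chromosome 4, had 16 against 1 reads, 8.01-fold (1.24 to 336), the highest of the 203 islands among those with a control read, and is shared with St3gal3. At the other end, Kdm3a, an H3K9 demethylase, had 17 against 13 reads in 1 promoter island, 0.655 (0.300 to 1.47), Kdm4d had 19 against 12, and Kdm3b had 69 against 34 over 4 islands, 1.02 (0.665 to 1.58).

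Islands were shared with other protein-coding genes at 37 of the 63 genes and numbered 76 of the 203, and no island was shared between chromatin genes. The reads of a shared island cannot be assigned to either gene. Without them 40 of the 67 genes kept an island, and the pooled fold was 1.49 (1.38 to 1.61). The matching share of all genes was not computed.

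Other chromatin genes, from 7 lists of complexes that the rule does not cover, were set beside them. Of 81 such genes 77 had an island and 59 a low-FDR island, beside 54.7% and 40.3% of all protein-coding genes, and their 217 islands had a pooled fold of 1.46 (1.38 to 1.55). The gene-level test passed 6 of the 77, all higher in the peak library, beside the 8.91% of all genes with an island. They were Ss18, a BAF subunit, with 61 against 6 reads and 5.09 (2.21 to 14.4), Smyd2 with 39 against 4 and 4.88 (1.76 to 18.8), Suz12 of Polycomb complex PRC2 with 39 against 5 and 3.91 (1.54 to 12.7), Ehmt2 with 78 against 19, Nsd1 with 165 against 47 and Jmjd1c with 278 against 78. Jmjd1c, a relative of Kdm3a, had 12 islands and 1.78 (1.38 to 2.33), where Kdm3a had 1. By list, to be read against the same 54.7%, an island was found at 8 of 9 COMPASS subunits, 16 of 16 other methyltransferases, 12 of 12 other Polycomb subunits and 13 of 15 other BAF and PBAF subunits. It was found at 10 of 10 ISWI and INO80 family partners, 11 of 11 NuRD subunits and 7 of 8 other demethylases.

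The pooled folds of these lists ran from 1.36 (1.19 to 1.55) for the other Polycomb subunits to 1.58 (1.25 to 2.02) for the COMPASS subunits. The other methyltransferases stood at 1.49, the other BAF and PBAF subunits at 1.49, the ISWI and INO80 family partners at 1.49, the other demethylases at 1.48 and the NuRD subunits at 1.42. Among the COMPASS subunits Dpy30 had 31 against 4 reads and Ncoa6 had 35 against 6, with 3.88 (1.37 to 15.1) and 2.92 (1.22 to 8.50). In NuRD, Rbbp7 and Mta2 stood at 3.34 (0.990 to 17.5) and 1.91 (1.09 to 3.55). Among the remodeller partners Ino80 and Baz2b stood at 2.07 (1.18 to 3.82) and 1.67 (1.12 to 2.57). In the remaining lists Bmi1 stood at 1.84, Brd9 at 3.84 from 23 against 3 reads, Smyd3 at 2.50 (0.942 to 8.38) and Phf2 at 1.95 (0.957 to 4.39).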

How the data were processed

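The submitters' processing notes name mm10, the aligner Bowtie2 2.4.2 and the island caller SICER 2.0; caller settings and duplicate handling are not stated there. Per the file headers, the authors deposited whole read counts of both libraries for each island, with a fold (the ratio of peak to scaled control reads), a p-value and an FDR. Total library depth is unknown. Positions count from 1, after adding 1 to the table's starts and ends.

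Genes came from RefSeq GRCm38.p6 and promoter windows, with strand, from its promoter table, and exons and a genome sequence were not used here. Islands were placed over a promoter window, in the gene or in a flank. The scaling factor was recomputed from the table. Exact conditional binomial tests used SciPy 1.17.1 under Python 3.11.15 and were checked on simulated reads. Those reads were drawn from the same binomial model and scaling factor that the test assumes, on fixed islands. The check therefore does not cover extra spread, PCR copies or calling on peak-library reads. The tests compare 2 libraries, not conditions. The chromatin genes, the lists and the rule for named genes were chosen with earlier results of these data known. That rule took a set of 31 genes of known role, per family the 4 highest and 2 lowest pooled folds with at least 20 peak-library reads and the 2 genes with most islands, genes passing the test, and, among islands, the 10 highest folds (20 or more peak-library reads) and 5 lowest FDR values, and from each other list the 2 highest pooled folds (20 or more peak-library reads). Alternatives covered locus reach, thresholds, shared islands, chromosome X and scaling.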

Additional observations from a re-analysis of the deposited data

How the results depend on the processing

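The pooled fold over the chromatin gene islands ran from 1.10 (1.04 to 1.17) with equal totals to 2.81 with unscaled reads. Equal totals lower each fold by 0.36 on the log2 scale, and the islands in loci of all protein-coding genes then pooled to 1.23. The chromatin gene fold stayed above 1 under every alternative tried, but calling on peak-library reads favours that side, so this is no result. Of the 67 genes, those with an island numbered 60 in gene bodies alone (beside 45.7% of all genes) and 65 with 50 kb flanks (68.3%). They numbered 47 with islands of 20 or more peak-library reads (33.7%), but 40 with islands shared with no other gene. Without chromosome X it was 61 of the 64 genes left (56.2%). Genes with a low-FDR island numbered 33 with islands of 20 or more reads (beside 21.8%), 31 with unshared islands, 17 at an FDR of 1e-05 (15.8%) and 0 by the island-level binomial test (0.178%). The share of low-FDR islands was 9.36% at 1e-05 and 0% by that test, which counts the error of the control reads too. Genes passing the gene-level test numbered 3 in the analysis as reported, 2 with gene bodies alone (beside 5.86% of genes with an island), 4 without chromosome X (9.2%), 18 with 50 kb flanks (28.6%), 0 with islands of 20 or more reads (beside 5.22%), 0 with equal totals (beside 1.04%) and 58 with unscaled reads (beside 85.1%). Islands per 100 kb were 1.30 with 20 or more reads and 2.04 unshared, since fewer islands entered. The matching all-gene values were not computed for these densities or for the counts with unshared islands. A promoter reach of 1 kb gave 43 genes (beside 41.8% of all genes with a window), against 40 (39.7%). Counts of 16 peak-library and 4 control-library reads in the median island limit single islands. No paired analysis was possible because each genotype has 1 library.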
